A study of Rattus norvegicus and Sus scrofa and Bos taurus with 188 samples.

Results

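The 8 genes described here encode the enzymes that place, keep and remove cytosine methylation: the DNA methyltransferases DNMT1, DNMT3A and DNMT3B, the DNMT1 recruiter UHRF1, the dioxygenases TET1, TET2 and TET3, and the glycosylase TDG. They were chosen by gene name, and all 8 were found in the table, with 29 of its 37571 transcript rows and 8 of its 15877 gene names. The series profiles DNA methylation, histone marks and RNA in oocytes, embryos and other cells of several mammals, in 188 samples of 90 groups. Only 1 group is used here, the RNA of pig morulae labelled PG. In other pig groups of the series that mark stands for parthenogenetically activated embryos, which start from an egg without sperm and so carry no paternal genome. The group has 4 Smart-seq2 libraries, a protocol that turns the polyadenylated RNA of very small samples into cDNA over the full transcript. Breed, embryo age in hours and embryos per library are not given in the sources used here.

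In mammalian embryos, methylation at CG sites is copied to the new strand after each replication by DNMT1, which UHRF1 brings to hemimethylated sites. DNMT3A and DNMT3B methylate sites anew. TET enzymes oxidise methylcytosine, and TDG cuts out the most oxidised forms, which base excision repair then replaces. Methylation falls across the cleavage divisions both through incomplete copying and through oxidation, and in the mouse TET3 is the main TET enzyme of the egg and zygote.

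The authors deposited 1 column of FPKM values (fragments divided by transcript length and by all mapped fragments) in which the 4 libraries were merged, so no value below has an error or a test, and the sequencing depth is unknown. The column sums to 304889 FPKM, and FPKM is a level per length, so genes can be set beside each other as far as the annotated lengths hold. A gene's level is the sum of its transcript rows. A gene was counted as expressed at 1 FPKM or more, which 8032 of the 15877 genes (50.6%) reached, with a median of 7.95 FPKM among them. In a merged column, fewer cells with a transcript and less RNA per cell cannot be told apart, nor can RNA stored in the egg and RNA made by the embryo.

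The label was checked against marker genes. All 8 early embryo markers stood between 30.9 and 194 FPKM, and all 8 oocyte markers between 1.44 and 179 FPKM. Of 7 cumulus and granulosa cell markers 2 reached 1 FPKM, VCAN at 19.1 FPKM and CYP19A1 at 1.06 FPKM, while the hormone receptor gene FSHR, which defines granulosa cells, was listed at 0 and AMH, another such marker, stood at 2.09e-54 FPKM. The 7 summed to 20.2 FPKM, and their part in the results was not tested. None of 6 sperm markers (0.366 FPKM summed) and none of 4 blood markers (1.53 FPKM summed) reached 1 FPKM.

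Of the 8 genes, 5 were expressed (62.5%, against 50.6% of all genes in the table). Their order was DNMT1 at 45.3 FPKM, TDG at 23.6 FPKM, TET1 at 21.1 FPKM, DNMT3A at 9.04 FPKM, TET2 at 1.05 FPKM, UHRF1 at 0.896 FPKM, DNMT3B at 0.748 FPKM and TET3 at 0.0800 FPKM. In each enzyme family 1 gene held most of the level: DNMT1 took 82.2% of the 55.1 FPKM of the DNMT genes, and TET1 took 94.9% of the 22.3 FPKM of the TET genes. Together the 8 genes came to 102 FPKM, or 0.0334% of the column, with a median of 5.05 FPKM against 1.06 FPKM over all genes. The former falls in the gap between DNMT3A and TET2, and the latter counts the 17.3% of genes listed at 0. The 3 steps in this order that were smallest were TDG over TET1 (1.12 times), TET2 over UHRF1 (1.17 times) and UHRF1 over DNMT3B (1.20 times). With no spread between libraries no step in the order could be tested, and these neighbours cannot be ordered.

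**Figure D1:**
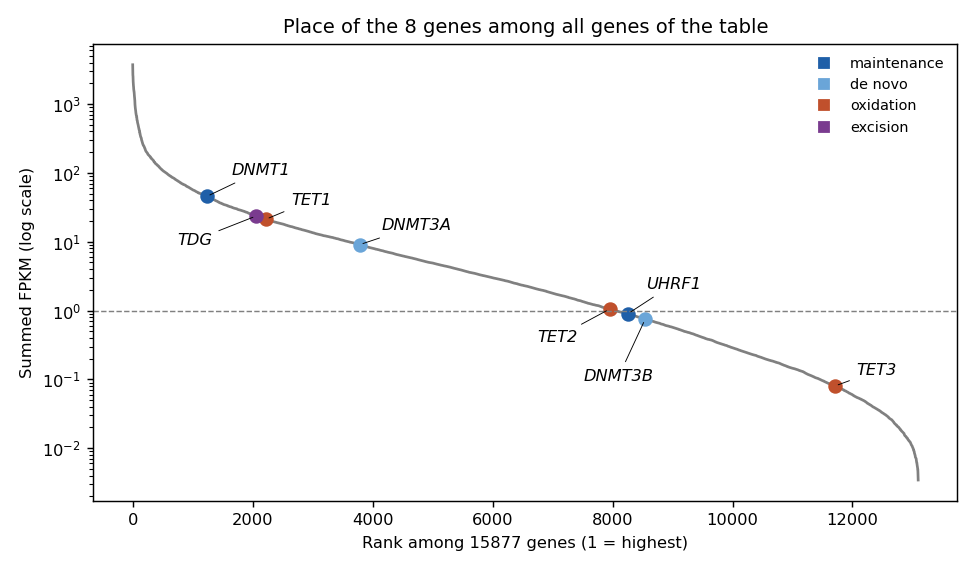
Summed FPKM (log scale) against rank for all genes of the table down to the foot of the plotted scale, with the 8 genes marked and coloured by role; the dashed line is 1 FPKM. DNMT1, TDG, TET1 and DNMT3A lie well above 1 FPKM, TET2, UHRF1 and DNMT3B lie beside it, and TET3 lies far below it.

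By rank, DNMT1 was number 1234 of 15877 (92.2% of genes were lower), TDG number 2061 (87.0%), TET1 number 2218 (86.0%) and DNMT3A number 3782 (76.2%). TET2 was number 7952 (49.9%), UHRF1 number 8254 (48.0%), DNMT3B number 8544 (46.2%) and TET3 number 11705 (26.3%). Between DNMT3A and TET2 lay 4169 other genes, between DNMT3B and TET3 3160, between TET1 and DNMT3A 1563 and between DNMT1 and TDG 826. The closest neighbours were UHRF1 and TET2 (301 genes between them), DNMT3B and UHRF1 (289) and TET1 and TDG (156). The place of the low genes depended on the genes ranked: with genes listed at 0 left out, 10.9% were below TET3, and among genes with 1 row 37.6% were. For DNMT3B 31.7% were lower among genes with 8 rows. DNMT1 ranked just below TMEM126A (45.4 FPKM) and just above TARS (45.3 FPKM). TET3 ranked just below HOXC4 and just above MYL2, both at 0.080 FPKM when rounded.

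The 29 transcript rows were spread over many orders of magnitude. Of them 6 (20.7%) reached 1 FPKM, against 30.3% of all rows in the table, and 15 (51.7%) reached 0.1 FPKM, against 51.3% of all rows. None was listed at 0, but 9 (31.0%) lay under 1e-04 FPKM, against 18.6% of all rows. Values this small are not counted reads, and how they arose was not tested. TET1, TET3 and TDG have 1 row each, so their highest row is the whole gene, as for 7058 genes of the table.

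**Figure D2:**
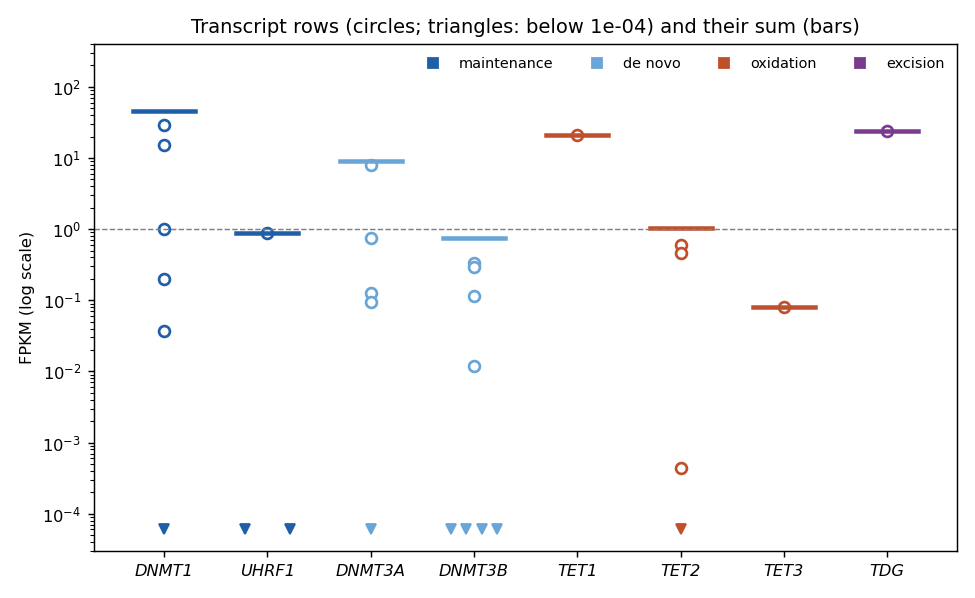
FPKM (log scale) of every transcript row (circles, triangles for rows below 1e-04 FPKM) and of their sum (bars) for each of the 8 genes; the dashed line is 1 FPKM and colours give the role. DNMT1 has 3 rows above 1 FPKM, DNMT3A, TET1 and TDG have 1 each, and no row of UHRF1, DNMT3B, TET2 or TET3 reaches it.

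DNMT1, the enzyme that copies methylation after replication, had 6 rows. ENSSSCT00000014923.3 stood at 29.0 FPKM (64.1% of the gene), ENSSSCT00000061264.1 at 15.0 FPKM (33.2%) and ENSSSCT00000055180.1 at 1.01 FPKM (2.22%). ENSSSCT00000040931.1 was at 0.201 FPKM, ENSSSCT00000046238.1 at 0.0370 FPKM and ENSSSCT00000038267.1 at 1.06e-05 FPKM. The level of DNMT1 was therefore carried by a pair of rows, the first 1.93 times the second. The share of its highest row lay at the middle of the 336 genes that also have 6 rows and a sum above 0, whose median share was 64.1%, with 49.4% of them lower. In the mouse, the egg makes a DNMT1 protein of its own from a separate first exon, and the table does not say which forms the pig rows encode.

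UHRF1, which binds hemimethylated CG sites and recruits DNMT1, had 3 rows, of which 1 held the gene. ENSSSCT00000014764.3 stood at 0.896 FPKM, ENSSSCT00000051749.1 at 1.67e-06 FPKM and ENSSSCT00000049158.1 at 1.38e-07 FPKM. Among the 1888 genes of 3 rows with a sum above 0, the median share of the highest row was 85.8%, and 90.3% of them had a lower share than UHRF1. The DNMT1 level was 50.6 times that of UHRF1, a log2 difference of 4.61 with a pseudocount of 1 FPKM, and 32.4 times by the highest row or 25.3 times by the mean over rows. UHRF2, the paralogue of UHRF1, stood at 83.5 FPKM, so UHRF1 held 1.06% of the 84.4 FPKM of both genes. The log2 difference of UHRF1 minus UHRF2 was -5.48 with a pseudocount of 1 FPKM and -6.39 with 0.1 FPKM. Without a pseudocount UHRF2 was 93.2 times UHRF1, and it was also above DNMT1 itself. UHRF1 was thus 0.0107 times UHRF2, against 0.0112 times by the highest row and 0.0179 times by the mean over rows.

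DNMT3A, which methylates sites anew, had 5 rows. ENSSSCT00000023785.2 stood at 8.09 FPKM (89.4% of the gene), ENSSSCT00000064647.1 at 0.738 FPKM (8.16%) and ENSSSCT00000040572.1 at 0.127 FPKM. ENSSSCT00000061087.1 was at 0.0932 FPKM and ENSSSCT00000022509.2 at 1.11e-05 FPKM. The first row was 11.0 times the next. Its share was higher than that of 74.0% of the 701 genes with 5 rows and a sum above 0, which had a median of 70.6%. Of the family, DNMT3A held 16.4%, and DNMT1 was 5.01 times as high.

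DNMT3B, the other de novo methyltransferase, had the most rows, 8, and none of them reached 1 FPKM. ENSSSCT00000056651.1 stood at 0.329 FPKM (44.0% of the gene), ENSSSCT00000007935.3 at 0.292 FPKM (39.0%), ENSSSCT00000049739.1 at 0.115 FPKM (15.4%) and ENSSSCT00000038031.1 at 0.0117 FPKM (1.57%). The gene was thus divided over 3 rows, and the highest row was 1.13 times the next. ENSSSCT00000056740.1 was at 7.37e-07 FPKM, and ENSSSCT00000041340.1, ENSSSCT00000046723.1 and ENSSSCT00000050908.1 lay between 1.42e-89 and 1.53e-43 FPKM, values far too small for a counted read. The highest share was lower than in most genes with 8 rows: 16.9% of 118 such genes were lower, and their median share was 60.8%. DNMT3A was 12.1 times DNMT3B in summed FPKM, 24.6 times by the highest row and 19.4 times by the mean over rows. DNMT3B held 1.36% of the DNMT family.

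**Figure D3:**
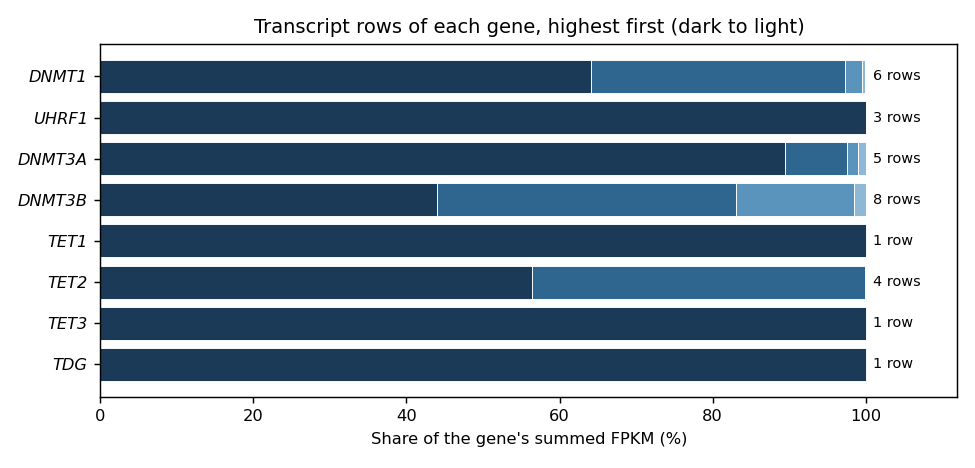
Share of each gene's summed FPKM taken by each of its transcript rows, highest first from dark to light, with the number of rows at the right. A single row holds nearly all of UHRF1 and 89.4% of DNMT3A, whereas DNMT1 and TET2 are each divided over a pair of rows and DNMT3B over 3.

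TET1, which oxidises methylcytosine, stood at 21.1 FPKM in its only row, ENSSSCT00000011209.3. TET2, which lacks the CXXC DNA-binding domain of the other TET proteins, had 4 rows. ENSSSCT00000010028.3 stood at 0.592 FPKM (56.3% of the gene) and ENSSSCT00000046452.1 at 0.458 FPKM (43.6%). Neither row reached 1 FPKM, and the gene did so only as their sum. ENSSSCT00000049129.1 was at 0.000445 FPKM and ENSSSCT00000038037.1 at 7.44e-17 FPKM. The share of the highest row was below the median of 78.5% of genes with 4 rows and a sum above 0, with 21.4% of the 1124 genes lower. TET3 stood at 0.0800 FPKM in its only row, ENSSSCT00000009081.3, the lowest level of the 8 genes. TET1 was 20.1 times TET2, 35.7 times by the highest row and 80.5 times by the mean over rows. It was 264 times TET3, and these settings cannot differ for this pair because both genes have 1 row. The log2 difference of TET1 minus TET3 was 4.36 with a pseudocount of 1 FPKM and 6.88 with 0.1 FPKM. TET2 and TET3 held 4.72% and 0.359% of the family.

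TDG, the glycosylase that removes formylcytosine and carboxylcytosine, stood at 23.6 FPKM in its only row, ENSSSCT00000000924.3. Its level was 1.12 times that of TET1, whose products it removes. The DNMT genes together were 2.48 times the TET genes (55.1 against 22.3 FPKM). DNMT1 alone was 2.15 times TET1 and 1.92 times TDG. This rests on summing the rows: by the highest row the ratios were 1.37 and 1.23. By the mean over rows DNMT1 lay below both, at 0.358 times TET1 and 0.320 times TDG. That mean divides the sum by the number of rows, 6 for DNMT1 and 1 each for TET1 and TDG. It is thus not a gene's level.

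**Figure D4:**
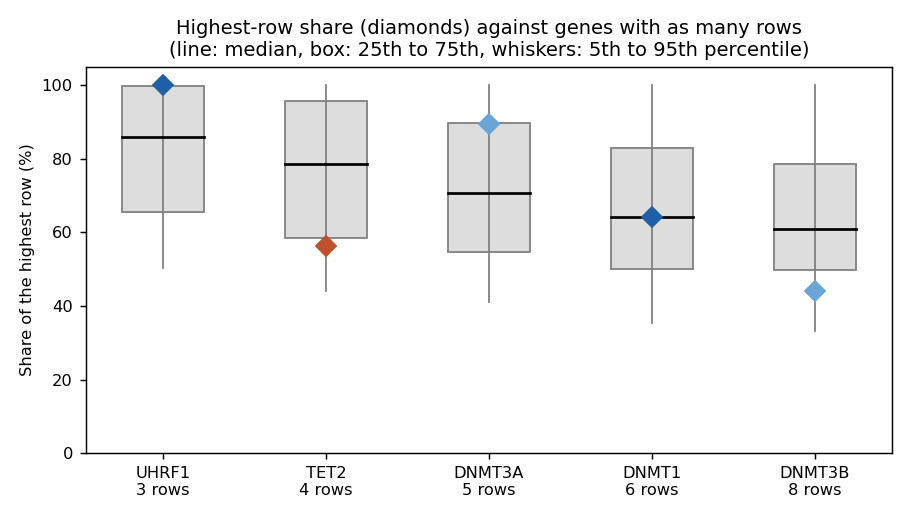
Share of the highest transcript row (diamonds) in the 5 genes with several rows, beside all genes with the same number of rows and a sum above 0 (line: median, box: 25th to 75th percentile, whiskers: 5th to 95th percentile). UHRF1 and DNMT3A lie above the median, DNMT1 lies on it, and TET2 and DNMT3B lie below it.

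The count of expressed genes depended on how rows were combined. With the highest row as the level, 4 of the 8 genes reached 1 FPKM, against 48.8% of all genes, since TET2 then stood at 0.592 FPKM and UHRF1 ranked above it. Just inside the threshold lay TET2 at 1.05 FPKM, and just outside it lay UHRF1 at 0.896 FPKM and DNMT3B at 0.748 FPKM. Scaled so that the column sums to 1000000 (TPM), UHRF1 stood at 2.94 TPM, DNMT3B at 2.45 TPM and TET3 at 0.262 TPM, and 7 of the 8 passed 1 TPM, as did 62.5% of all genes. At 0.5 FPKM 7 of the 8 passed, against 57.9% of all genes, and at 5 FPKM 4 of the 8 passed, against 31.1%. Without rows under 0.1 FPKM the count was 5, against 50.5% of all genes.

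Genes around these enzymes, some of them only relatives of partners or of the enzymes, were described in 7 lists with 63 genes in the table. Of these 47 (74.6%) were expressed, with a median of 4.95 FPKM, against 50.6% of all genes and their median of 1.06 FPKM. Nothing particular to a list is read from these counts. All 8 maintenance partners in the table were expressed, with a median of 13.6 FPKM. PCNA, the replication clamp that DNMT1 binds, stood at 717 FPKM, UHRF2 at 83.5 FPKM and USP7, a deubiquitinase that acts on DNMT1 and UHRF1, at 42.4 FPKM. The lowest were DMAP1, which binds DNMT1, at 4.97 FPKM and CDCA7L at 4.95 FPKM. UHRF1 at 0.896 FPKM was thus lower than each of these 8 partners, a list chosen with earlier results of these data known. DPPA3, which keeps UHRF1 off chromatin in the mouse, was not analysed here.

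On the de novo side, 4 of 7 genes were expressed (57.1%, against 50.6% of all genes). Outside the run of 474 rows at 0 that ends the table it was 4 of 6 (66.7%), and 47 of 62 (75.8%) over all lists. TRDMT1, a relative of the DNMT genes that methylates transfer RNA, stood at 24.9 FPKM, above DNMT3A. The H3K36 methyltransferase genes NSD1 and NSD3 stood at 10.1 and 9.55 FPKM, close to DNMT3A at 9.04 FPKM. EHMT2, an H3K9 methyltransferase, was at 0.563 FPKM, and its partner EHMT1 was listed at 0 within that run, so nothing can be said of its level. DNMT3L, the cofactor of the de novo enzymes, was not analysed here.

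Of 7 genes around the TET reaction 4 were expressed (57.1%, against 50.6% of all genes). These were the 4 isocitrate dehydrogenase genes in the table, whose enzymes make 2-oxoglutarate, the cosubstrate of TET enzymes. IDH3G stood at 102 FPKM, IDH3B at 77.1 FPKM and IDH2 at 68.8 FPKM. CXXC4, a TET2 partner, was at 0.210 FPKM. IDH1, another isocitrate dehydrogenase gene, and OGT were also listed, but had no row under those names and were not analysed here. In base excision repair 11 of the 13 genes in the table were expressed (84.6%), with a median of 6.05 FPKM. APEX1, APEX2 and POLB of the same list had no row under those names and were not analysed here. Highest were the uracil glycosylase gene UNG at 34.0 FPKM, the ligase gene LIG3 at 16.6 FPKM and the glycosylase gene NEIL3 at 12.3 FPKM. NEIL1 (0.211 FPKM) and NEIL2 (0.187 FPKM) were lowest. Among glycosylases that act on thymine or uracil opposite guanine, TDG at 23.6 FPKM was 0.695 times UNG. In summed FPKM, TDG was also 2.16 times MBD4 (10.9 FPKM) and 3.91 times SMUG1 (6.05 FPKM), both chosen after their values were seen. The mean over rows gave 1.39 times UNG and 8.65 times MBD4, but it divides by 1 row for TDG, 2 for UNG and 4 for MBD4.

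**Figure D5:**
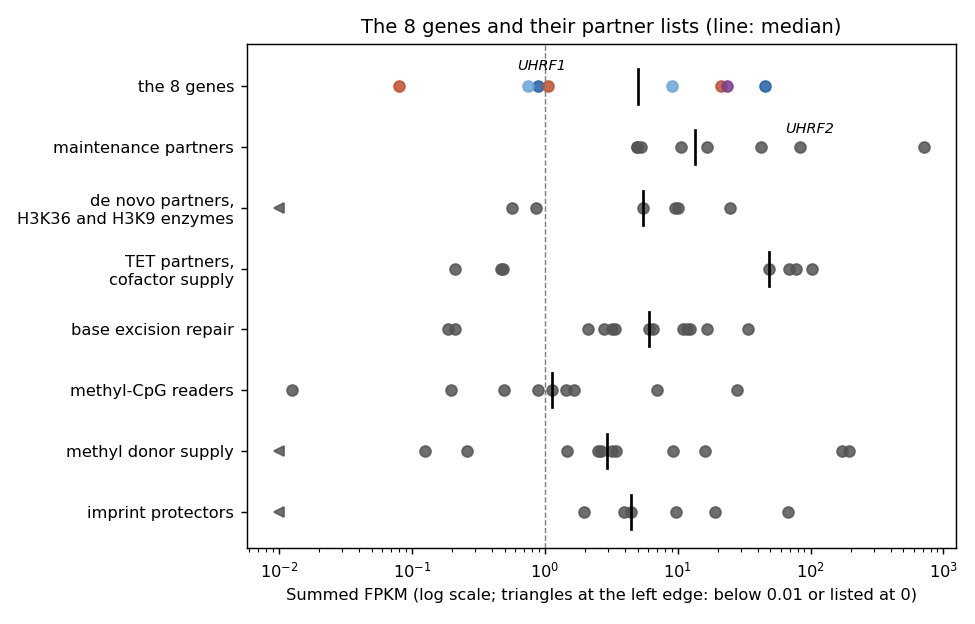
Summed FPKM (log scale) of the 8 genes, coloured by role, and of the genes in 7 partner lists, with the median of each as a line and the dashed line at 1 FPKM; triangles at the left edge are genes below 0.01 FPKM or listed at 0. UHRF1 at 0.896 FPKM lies left of all 8 maintenance partners, among them UHRF2 at 83.5 FPKM. The lists were chosen with earlier results of these data known.

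The list of methyl-CpG readers holds genes whose proteins read methylated sites and relatives of these genes. Of its 9 genes 5 were expressed (55.6%, against 50.6% of all genes). The list had a median of 1.13 FPKM against 1.06 FPKM over all genes, so it lay near the table as a whole. ZBTB33, which binds methylated CG sites, stood at 27.9 FPKM, MBD3 at 7.02 FPKM and MBD1 at 1.66 FPKM, while MBD6 was at 0.198 FPKM and ZBTB4 at 0.0126 FPKM. For the methyl donor S-adenosylmethionine 9 of 12 genes were expressed (75%). MAT2A, which makes it, and its regulatory subunit gene MAT2B stood at 195 and 173 FPKM, each above every one of the 8 methylation genes. AHCY, which clears the by-product that inhibits methyltransferases, was at 16.0 FPKM, BHMT at 0.125 FPKM, and MAT1A, the form of adult liver, was listed at 0. Of 7 genes listed for imprint protection 6 were expressed (85.7%), led by NAA10 at 68.1 FPKM, CTCF at 19.1 FPKM and TRIM28 at 9.75 FPKM. ZNF445, a zinc finger protein that holds TRIM28 at imprints, stood at 1.98 FPKM, and CTCFL, the germline relative of CTCF, was listed at 0.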

How the data were processed

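Libraries were made with Smart-seq2, per the labels' protocols. The deposited table gives FPKM per Ensembl transcript, computed by the authors, in 1 column in which 4 libraries were merged, per the file name. Whether reads or values were merged is unknown. The processing notes of the submitters name TopHat2 2.1.1, Cufflinks 2.2.1 and the build susScr11 among other tools and builds, with no role. Read depth is unknown, and a row's value rests on the annotated length and on how reads were divided among rows.

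Rows were matched by gene name and summed per gene with pandas 2.3.3. Ranks count from the highest sum, and ties share the best rank. The code for summing and ranking was checked on simulated data without noise (15877 genes, 100% recovered). That check does not bear on how accurate the levels or ranks are. The limma test planned for a column per library was not possible. Members, lists and markers were chosen with earlier results of these data known. Each partner list names its 3 highest and 2 lowest genes, and 1 gene that the rule takes is not reported here. Alternatives were the highest row, the mean of rows, thresholds of 0.5 and 5 FPKM, TPM, a filter at 0.1 FPKM and other sets of genes to rank against. Sequences were not used here.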

Additional observations from a re-analysis of the deposited data

How the results depend on the processing

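The count of 5 expressed genes became 4 with the highest row or at 5 FPKM, 7 at 0.5 FPKM or after scaling to TPM, and stayed at 5 without rows under 0.1 FPKM. With the highest row the 8 genes summed to 83.8 FPKM in place of 102 FPKM, and DNMT1 held 77.5% of its family and TET1 96.9%. TET2 then fell below UHRF1, with a log2 difference of -0.25 in place of 0.11, both with a pseudocount of 1 FPKM. Without rows under 0.1 FPKM, DNMT1 held 82.4% and TET1 95.3%, and TET3 dropped out. The median percent of genes ranked below the 8 was 63.0, and it became 63.6 by the highest row, 62.5 without the genes of the trailing rows at 0, 55.3 without genes listed at 0, 55.2 among genes with as many rows, 54.8 by the mean over rows and 62.6 without Rfam names, the last chosen after seeing the data. By the mean over rows the order was TDG, TET1, DNMT1, DNMT3A, UHRF1, TET2, DNMT3B and TET3. DNMT1 no longer led there, with its sum divided by 6 rows and those of TDG and TET1 by 1. Ratios between genes by the mean over rows, and list counts without the trailing rows, were added after seeing the data. Against genes with as many rows and 0.5 FPKM or more, a set chosen after seeing the data, 55.6% had a lower highest-row share than DNMT1, 81.7% than DNMT3A, 20.2% than DNMT3B, 93.5% than UHRF1 and 24.8% than TET2. No paired analysis was possible because the 4 libraries share 1 column, and leaving out a library was not possible for the same reason. Depth limits cannot be stated without read counts.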

Other observations

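Ensembl raises the version at the end of a transcript's ID when its model changes, and the rows of the 5 genes with several rows mix first and later versions. In 4 of these 5 genes the highest row had a later version (DNMT1, DNMT3A, UHRF1 and TET2), although later versions made up 23.1% of their rows. DNMT3B was the exception, with ENSSSCT00000056651.1 above ENSSSCT00000007935.3 by 0.329 against 0.292 FPKM. Over the table, 6266 genes above 0 mix both kinds, with 37.1% of their rows in a later version, and the highest row had one in 3444 (55.0%). Among the 4130 of them at 1 FPKM or more it did in 2437 (59.0%). This pattern was noticed in the data and has no test.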
